A study of Homo sapiens with 8 samples.

Results

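Calcium pumps and store-operated entry genes were followed in CAPAN-2 pancreatic cancer cells depleted of ErbB2 or MUC4. The set holds 8 of the 17240 genes that could be named on the arrays: the Golgi pumps ATP2C1 and ATP2C2, the endoplasmic reticulum pumps ATP2A2 and ATP2A3, the plasma membrane pumps ATP2B1 and ATP2B4, the calcium sensor STIM1 and the channel ORAI1. All 15 probes whose accession maps to these symbols were taken, of 41000 probes on the array. The set was chosen by its role in calcium transport and by the measured log2 ratios of ATP2C2, seen to be lower in both knockdowns as labelled, so the ATP2C2 values are given as a description, with no test.

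CAPAN-2 cells come from a human pancreatic adenocarcinoma and are a long-established line. ErbB2-KD cells carry a stably transfected shRNA against ErbB2 under puromycin selection and were compared with NT cells, which received the empty vector. MUC4-KD cells carry a retroviral shRNA against MUC4 under G418 selection and were compared with Mock cells, transduced with the empty vector. All were grown as clones from limiting dilution, so a knockdown sample is 1 clone, and the ErbB2-KD clones are named EV7, EV12, EV9 and EV18 in the labels of arrays 1 to 4, whereas those of MUC4-KD are not named. The methods count 4 MUC4-KD clones, but the labels do not tell whether arrays of opposite dye, such as 1 with 3 and 2 with 4, hold different clones or the same clone again, in which case n = 4 arrays would stand for fewer clones. Each experiment used 4 Agilent 2-colour arrays with the knockdown RNA in Cy5 on 2 of them and in Cy3 on the other 2, and a pool of NT or Mock clones in the second channel. The same pool served all arrays of an experiment and counts as 1 control sample, so the p-values measure the spread between these arrays and leave out that of the controls.

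Calcium is kept low in the cytosol by pumps that spend ATP. SERCA pumps, encoded by ATP2A genes, fill the endoplasmic reticulum, SPCA pumps, encoded by ATP2C genes, carry calcium and manganese into the Golgi, and PMCA pumps, encoded by ATP2B genes, expel calcium from the cell. When the endoplasmic reticulum store empties, STIM1 in its membrane opens the ORAI1 channel of the plasma membrane, which is store-operated entry. The Golgi pump encoded by ATP2C2 is found mainly in secretory epithelia and is known, in mammary cells, to bind ORAI1.

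The 2 Golgi pumps moved apart in the RNA labelled MUC4-KD. ATP2C2 was 7.24-fold lower there than in Mock and 3.63-fold lower in ErbB2-KD than in NT, on 4 of 4 arrays in each experiment. In that RNA all 3 ATP2C1 probes and the brighter ATP2B4 probe were higher than in Mock, by 1.68- to 2.77-fold on average. These are bulk samples, in which fewer cells expressing a gene and less of its RNA per cell cannot be told apart. None of the probes of ATP2A2, ATP2B1, ORAI1 or STIM1 passed the test in either experiment, and ATP2A3 was too dim to be tested.

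The targeted genes were read first as a check of the labels. The brightest ERBB2 probe was lower on 4 of 4 ErbB2-KD arrays, with a mean log2 ratio of -0.40 ± 0.12 (SD, n = 4 arrays, limma adjusted p = 0.145), and the second, dim probe was at 0.04 ± 0.02 (0.897). On these arrays MUC4 went against its label, whereas the study's protein blots and qRT-PCR of MUC4-KD cells ran as labelled: the brightest of its 4 probes had a mean log2 ratio of 0.27 ± 0.23 for RNA labelled MUC4-KD (adjusted p = 0.167), and 2 other probes were higher there on 4 of 4 arrays, at 1.84 ± 0.57 and 1.34 ± 0.84 (limma adjusted p of 0.00804 and 0.0355). All ratios below keep the direction of the labels, and the group is written as the RNA labelled MUC4-KD. The study's own list of genes changed in MUC4-KD runs the opposite way for ATP2C2 and ATP2B4, whereas its ErbB2-KD list has the direction given here for ATP2C2, and turning these ratios would turn each direction given for that experiment. Between 56.7% and 74.2% of the probes on an array rose well above background, depending on the channel, and no spot was saturated. The 6 ductal epithelial markers looked up, among them KRT19 and EPCAM, were above background in all 16 channels, whereas 0 of 4 acinar, 0 of 3 islet, 0 of 3 fibroblast and 0 of 3 endothelial markers were, and 1 of 4 leukocyte markers (CD14) was. Short of all 16, the endothelial marker VWF was above background in 14 channels, CD3E in 8, PRSS1 in 6 and INS in 5. The rest were in 0 to 4.

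Of the 15 probes, 12 were bright enough to be tested in each experiment, which needed a signal well above background on every array in the knockdown's channel or in the control's. Leaving aside ATP2C2, 0 of 11 probes passed an adjusted p of 0.05 in ErbB2-KD, where 1.43% of all 23869 tested probes did, 0.549% as higher and 0.884% as lower. With limma, 6 of the 11, from 4 genes, had an unadjusted p under 0.05, beside 18.0% of all tested probes. In the RNA labelled MUC4-KD, 4 of 11 passed, all of them higher, where 20.5% of all 25047 tested probes passed, 12.0% as higher and 8.48% as lower. These 4 probes belong to only 2 genes, ATP2C1 and ATP2B4.

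**Figure D1:**
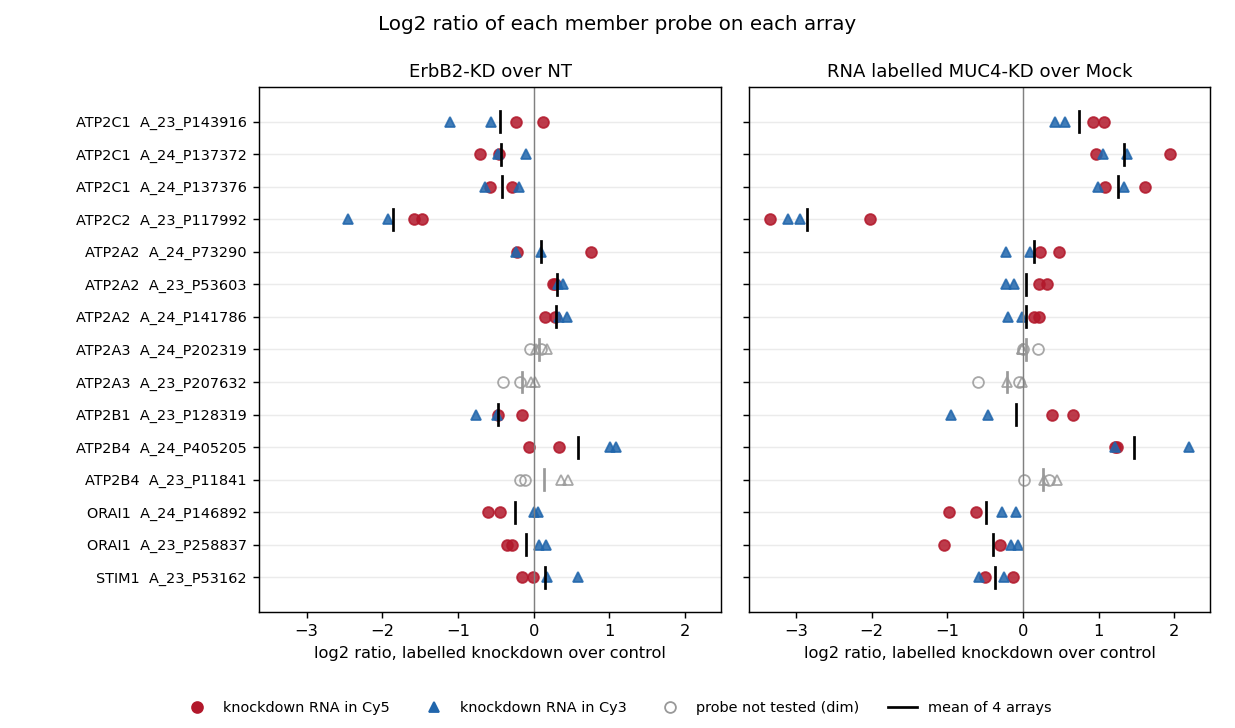
Log2 ratio of labelled knockdown over control for each of the 15 member probes, 1 point an array, with circles for knockdown RNA in Cy5 and triangles for Cy3, and a bar at the mean of 4 arrays. Open grey points are the 3 probes too dim to be tested. ATP2C2 lies between -3.35 and -1.48 on all 8 arrays, and the ATP2C1 probes lie above 0 on every array of the RNA labelled MUC4-KD.

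ATP2C2 encodes SPCA2, the Golgi pump of secretory epithelia. Its single probe gave log2 ratios of -1.48, -1.58, -2.46 and -1.93 on ErbB2-KD arrays 1 to 4, a mean of -1.86 ± 0.44 (SD, n = 4). For RNA labelled MUC4-KD the ratios were -3.11, -2.94, -3.35 and -2.02 on arrays 1 to 4, a mean of -2.86 ± 0.58. Every ratio lay below 0. The highest ErbB2-KD values were those of clones EV7 and EV12, both with the knockdown in Cy5, so clone and dye cannot be told apart.

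The normalized log2 intensity of ATP2C2 restates its ratios by channel, since the difference between the 2 channels of an array is its log2 ratio. In NT it lay between 9.93 and 10.34, and in the ErbB2-KD clones it was 8.85, 8.35, 7.88 and 8.34. In Mock it was 11.23, 11.06, 11.26 and 10.24, and in the RNA labelled MUC4-KD it lay between 7.91 and 8.22. Control and knockdown intensities were all well above background, and as values of the gene that chose the set they carry no test. The Mock channel of MUC4-KD array 4, at 10.24, stood below the 11.06 to 11.26 of the other 3 arrays, although the pool was the same, and that array gave the smallest ATP2C2 ratio of its experiment.

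Split by dye, ATP2C2 could only stay below 0, since every one of its ratios did, so the split shows sizes and is no further support. With the knockdown in Cy5 the mean log2 ratio was -1.53 in ErbB2-KD and -2.68 in the RNA labelled MUC4-KD, and with the knockdown in Cy3 it was -2.19 and -3.03. Leaving out each array in turn moved the mean between -1.99 and -1.66 in ErbB2-KD and between -3.13 and -2.69 in the RNA labelled MUC4-KD. The log ratios made by Feature Extraction gave larger sizes, -2.39 and -3.78.

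**Figure D2:**
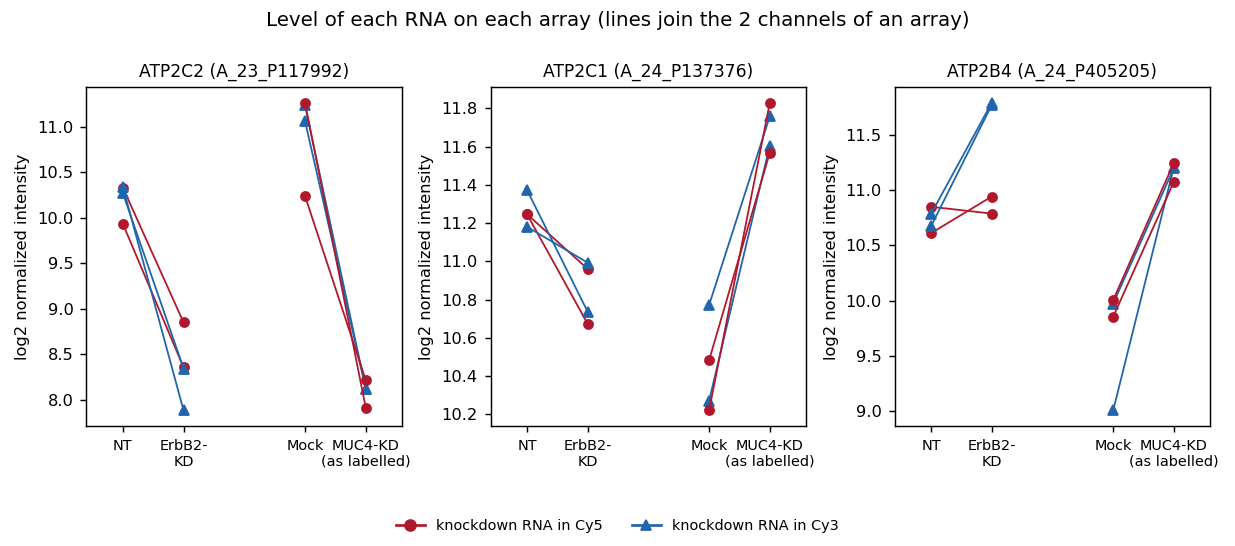
Normalized log2 intensity of ATP2C2 (A_23_P117992), ATP2C1 (A_24_P137376) and ATP2B4 (A_24_P405205) in the control and in the knockdown channel, where a line joins the 2 channels of an array, red for knockdown RNA in Cy5 and blue for Cy3. The ATP2C2 lines all slope down, those of this ATP2C1 probe slope down in ErbB2-KD and up in the RNA labelled MUC4-KD (the brightest ATP2C1 probe, not drawn, was at 0.13 on ErbB2-KD array 2), and the Mock channel of ATP2B4 on MUC4-KD array 2 lies apart at 9.01.

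By a root mean square difference over the 8 arrays, the genes with ratios nearest to those of ATP2C2, among probes tested in both experiments, were KLHDC7B (0.57 log2 units), OAS1 (0.70), TRIM22 (0.70), IFI6 (0.72) and NUPR1 (0.73). OAS1 encodes an antiviral enzyme that makes oligoadenylate, TRIM22 an antiviral ubiquitin ligase, IFI6 an interferon-induced mitochondrial protein and NUPR1 a stress-induced nuclear protein. The KLHDC7B ratios ran from -2.47 to -0.65 in ErbB2-KD, and on the arrays of RNA labelled MUC4-KD from -2.68 to -1.82. These genes were picked for their likeness to ATP2C2, so their values carry no test.

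ATP2C1 encodes SPCA1, the widely expressed Golgi pump whose loss of 1 copy causes Hailey-Hailey disease. Its 3 probes are designed on 3 different RefSeq transcripts of the gene and are not replicates of each other. Set against Mock, the brightest probe, A_23_P143916, gave log2 ratios of 0.42, 0.55, 0.93 and 1.07 on MUC4-KD arrays 1 to 4. Probe A_24_P137372 gave 1.37, 1.06, 0.96 and 1.95, and probe A_24_P137376 gave 1.33, 0.99, 1.09 and 1.61. All 12 of these values lay above 0.

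The mean log2 ratio of ATP2C1 in the RNA labelled MUC4-KD was 0.75 ± 0.31 for probe A_23_P143916 (SD, n = 4, limma adjusted p = 0.0246), 1.34 ± 0.44 for A_24_P137372 (0.0109) and 1.25 ± 0.28 for A_24_P137376 (0.00644), that is 1.68-, 2.53- and 2.38-fold. The 95% interval ran from 0.39 to 1.10 for the first probe and from 0.92 to 1.59 for the third, so that these intervals overlap. The brightest probe passed in 1 of 4 fits that left out an array, that without array 4, and missed the threshold without array 1 (adjusted p = 0.0709) and array 2 (0.0737), and A_24_P137372 missed it without array 1 (0.0579). All 3 probes fell short without array 3 (adjusted p of 0.137, 0.0664 and 0.061) and with median centring in place of loess (0.771, 0.602 and 0.582), where the means stayed between 0.95 and 1.49.

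In ErbB2-KD the ATP2C1 ratios were small and mostly below 0. Probe A_24_P137376 gave -0.57, -0.29, -0.64 and -0.19, a mean of -0.42 ± 0.22 (limma adjusted p = 0.169), and A_24_P137372 gave -0.71, -0.45, -0.47 and -0.10, a mean of -0.43 ± 0.25 (0.180). Both lay below 0 on 4 of 4 arrays without passing the test. The brightest probe, A_23_P143916, was lower on 3 of 4 arrays, at -0.24, 0.13, -1.10 and -0.57, and its mean of -0.44 ± 0.52 had an adjusted p of 0.337.

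Of the pumps of the endoplasmic reticulum, no ATP2A2 probe passed the test in either experiment, and ATP2A3 was too dim to be tested. ATP2A2 encodes SERCA2, the pump that fills this store in most cells, and its 3 probes are designed on the same transcript. In ErbB2-KD, A_23_P53603 gave log2 ratios of 0.28, 0.25, 0.39 and 0.32, and A_24_P141786 gave 0.29, 0.15, 0.44 and 0.33. Both probes lay above 0 on 4 of 4 arrays, with means of 0.31 ± 0.06 and 0.30 ± 0.12 (1.24- and 1.23-fold), but their limma adjusted p-values were 0.200 and 0.230. The brightest ATP2A2 probe, A_24_P73290, was above 0 on 2 of 4 ErbB2-KD arrays, between -0.23 and 0.76.

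Against Mock the 3 ATP2A2 probes had mean log2 ratios of 0.14, 0.05 and 0.04 (limma adjusted p of 0.487, 0.823 and 0.841). The narrowest of their 95% intervals, that of A_24_P141786, ran from -0.25 to 0.32. The 2 probes that were above 0 throughout ErbB2-KD had ratios on both sides of 0 here.

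ATP2A3 encodes SERCA3, which is best known from blood and epithelial cells. Neither of its 2 probes was well above background on all arrays of any RNA. A_24_P202319 was above background in the ErbB2-KD channel on 1 of 4 arrays and in no other channel, and A_23_P207632 on 1 of 4 ErbB2-KD, 2 of 4 NT, 0 of 4 MUC4-KD and 2 of 4 Mock channels. With both channels not well above background on most arrays, no fold is given for ATP2A3.

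The plasma membrane pump ATP2B4, PMCA4, was called higher in the RNA labelled MUC4-KD. Its brighter probe, A_24_P405205, gave log2 ratios of 1.22, 2.20, 1.22 and 1.24 on arrays 1 to 4, with a mean of 1.47 ± 0.49 (SD, n = 4, 2.77-fold, limma adjusted p = 0.0102). Arrays 1, 3 and 4 lay close together and array 2 stood apart above them. Without array 2 the mean was 1.23 (adjusted p = 0.0245), whereas without array 3 it was 1.56 and the adjusted p 0.0732.

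The ATP2B4 level in the RNA labelled MUC4-KD lay between 11.07 and 11.24 log2 units on all 4 arrays. In Mock it was 9.97, 9.01 and 9.85 on arrays 1 to 3 and just above these on array 4, so the high ratio of array 2 goes with a low Mock channel. Median centring left the mean of ATP2B4 at 1.57 with an adjusted p of 0.419. The second ATP2B4 probe, A_23_P11841, is designed on another transcript. It was above background in the RNA labelled MUC4-KD on 3 of 4 arrays and in Mock on 0 of 4. Its mean ratio was 1.21-fold higher, untested and near background. On array 4 the log2 ratio was 0.01, with neither channel well above background.

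In ErbB2-KD the A_24_P405205 ratios of ATP2B4 were 0.33, -0.06, 1.10 and 1.01, a mean of 0.59 ± 0.55 (limma adjusted p = 0.237). Clones EV9 and EV18, with the knockdown in Cy3, lay near 1, and clones EV7 and EV12, with the knockdown in Cy5, lay near 0. The mean was 1.05 in the first pair of arrays and 0.13 in the second. Clone and dye cannot be told apart here.

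Both genes called in the RNA labelled MUC4-KD have promoters in the RefSeq table (GRCh38.p14), which holds 12 promoter windows for 5 of the 8 members. They are shown 5′ to 3′ on the strand of the gene, with GC boxes in capitals (the letters GGGCGG on either strand). Of 3 windows listed for ATP2C1, the one with the most GC boxes is given, chr3:130894300-130894599 on the plus strand, and the window of ATP2B4 is chr1:203626582-203626881 on the plus strand.
ATP2C1: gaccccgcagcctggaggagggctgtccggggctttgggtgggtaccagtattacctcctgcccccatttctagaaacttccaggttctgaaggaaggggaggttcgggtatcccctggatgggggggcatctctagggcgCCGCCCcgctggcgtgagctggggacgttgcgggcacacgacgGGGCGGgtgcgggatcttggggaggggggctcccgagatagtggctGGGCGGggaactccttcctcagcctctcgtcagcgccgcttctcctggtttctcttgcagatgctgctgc
ATP2B4: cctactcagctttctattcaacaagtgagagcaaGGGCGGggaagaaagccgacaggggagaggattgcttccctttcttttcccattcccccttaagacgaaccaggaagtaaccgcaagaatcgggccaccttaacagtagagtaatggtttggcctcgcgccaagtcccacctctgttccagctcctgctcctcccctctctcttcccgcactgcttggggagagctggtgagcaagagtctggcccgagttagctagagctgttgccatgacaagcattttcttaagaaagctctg
The ATP2C1 window holds 3 GC boxes and the ATP2B4 window 1, a motif found in 45% of the 35116 windows of 300 bases in the table. The AP-1 letters TGANTCA were in neither window, nor in the other 10 windows of members, and in 7.71% of all windows. Windows for ATP2C2, ATP2A3 and ORAI1 were not used here.

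ATP2B1 encodes PMCA1, the plasma membrane pump present in nearly all cells. In ErbB2-KD its probe gave log2 ratios of -0.47, -0.15, -0.48 and -0.76, a mean of -0.47 ± 0.25 (limma adjusted p = 0.156). These values lay below 0 on 4 of 4 arrays without passing the test. Against Mock the ATP2B1 ratios were -0.46, -0.96, 0.67 and 0.38. The 2 arrays with the knockdown in Cy3 lay below 0, with a mean of -0.71, and the 2 arrays in Cy5 above 0, with a mean of 0.52. The mean over all 4 was -0.09 ± 0.75 (limma adjusted p = 0.834), and its 95% interval ran from -0.77 to 0.59.

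STIM1 senses the calcium content of the endoplasmic reticulum. Its log2 ratios for RNA labelled MUC4-KD were -0.58, -0.25, -0.50 and -0.13, a mean of -0.36 ± 0.21, below 0 on 4 of 4 arrays (limma adjusted p = 0.0825). It passed the threshold without array 4 (-0.44, adjusted p = 0.0381) and with Feature Extraction's ratios (-0.67, 0.0356). In ErbB2-KD the STIM1 ratios were -0.01, -0.15, 0.58 and 0.17, with 2 arrays on each side of 0 and an adjusted p of 0.678.

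ORAI1 forms the pore of the store-operated channel, and its 2 probes are designed on the same transcript. The brighter probe, A_24_P146892, gave ratios over Mock of -0.28, -0.09, -0.97 and -0.62, a mean of -0.49 ± 0.39 (limma adjusted p = 0.0828). The other probe, A_23_P258837, gave -0.15, -0.07, -1.05 and -0.30, a mean of -0.39 ± 0.45 (0.167). Both were below 0 on 4 of 4 arrays, and the lowest value of each came from array 3.

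The ORAI1 ratios also split by dye. Over Mock the mean of the brighter probe was -0.80 with the knockdown in Cy5 and -0.19 in Cy3, and in ErbB2-KD it was -0.52 and 0.04. With a dye term in the fit the ORAI1 mean of -0.49 in the RNA labelled MUC4-KD had an adjusted p of 0.0365. In ErbB2-KD the 2 probes had means of -0.24 ± 0.33 and -0.10 ± 0.26 (limma adjusted p of 0.471 and 0.764).

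The difference between the experiments was tested with limma over all 8 arrays, as RNA labelled MUC4-KD minus ErbB2-KD, which have different control pools. Of the 11 probes tested, 3 passed an adjusted p of 0.05, all higher, where 9.91% of all 25835 probes did, 6.49% as higher and 3.41% as lower. All 3 were those of ATP2C1. The differences were 1.19 (95% interval 0.58 to 1.80, adjusted p = 0.0293) for A_23_P143916, 1.77 (1.23 to 2.31, 0.00541) for A_24_P137372 and 1.67 (1.26 to 2.09, 0.00262) for A_24_P137376.

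Arrays of both experiments lay on each of 3 slides, which allows the ATP2C1 difference to be read within a slide. It was 1.22, 0.95 and 1.25 for A_23_P143916 on slides 1, 2 and 3, then 1.65, 2.40 and 1.26 for A_24_P137372, and 1.59, 1.90 and 1.40 for A_24_P137376. With the slide as a random block the 3 differences were 1.19, 1.77 and 1.67 (limma adjusted p of 0.0282, 0.00516 and 0.00245). The brightest ATP2C1 probe passed in only 2 of 8 fits that left out 1 array, with adjusted p-values from 0.0194 to 0.0932. If the MUC4-KD ratios are turned, the differences become -0.30, -0.90 and -0.83, and only the last 2 pass (adjusted p of 0.46, 0.0328 and 0.0196).

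**Figure D3:**
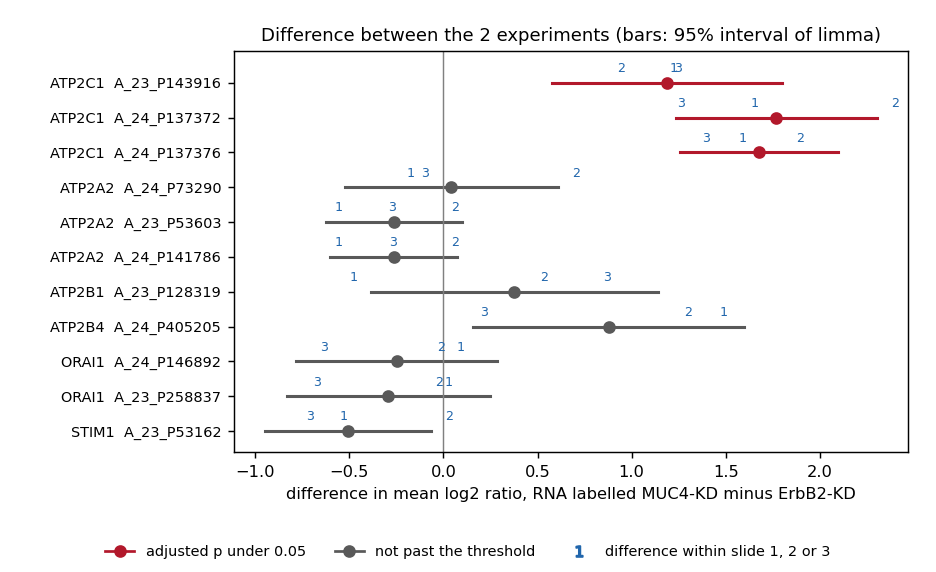
Difference in mean log2 ratio, RNA labelled MUC4-KD minus ErbB2-KD, with its 95% interval for the 11 probes tested, and the difference within slides 1, 2 and 3 as small numerals. The 3 ATP2C1 probes, in red, lie between 1.19 and 1.77 and passed an adjusted p of 0.05, and each of their within-slide differences lies above 0.

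For ATP2B4 the difference was 0.88 (95% interval 0.16 to 1.60, limma adjusted p = 0.109) and did not pass, and within slides 1, 2 and 3 it was 1.49, 1.30 and 0.22. It passed with a dye term (adjusted p = 0.0412) and, with the MUC4-KD ratios turned, became -2.06 (0.00484). The STIM1 difference of -0.51 had an interval from -0.95 to -0.07 and an adjusted p of 0.125. For ATP2A2, ATP2B1 and ORAI1 the differences lay between -0.29 and 0.38, with adjusted p-values from 0.271 to 0.927, and the widest of their intervals, that of ATP2B1, ran from -0.39 to 1.14.

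Other genes of calcium transport were read from 9 lists of 86 genes, of which 84 were on the array, each at its brightest probe. In ErbB2-KD 0 of 58 tested genes passed an adjusted p of 0.05, where 1.94% of all 12006 genes did. At an unadjusted p under 0.05 there were 12 by limma, beside 20.8% of all tested genes, so the count lay near the share of all genes. In the RNA labelled MUC4-KD 13 of 60 tested genes passed, 9 higher and 4 lower, where 23.1% of all 12274 genes passed, 12.2% as higher and 10.9% as lower. The median log2 ratio over the lists was 0.06 in ErbB2-KD and 0.07 in the RNA labelled MUC4-KD, beside -0.0027 and -0.01 over all tested genes.

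The other pumps and store-operated entry genes did not pass in either experiment. ATP2A1, ATP2B2 and ATP2B3, pumps of muscle and nerve, were too dim to be tested. Of 7 store-operated entry genes, 6 were tested, and CRACR2A was not. In ErbB2-KD, the largest mean was that of ORAI2, a second pore subunit, at 0.84 ± 0.77 (limma adjusted p = 0.212), with ratios of 0.20, 0.78, 1.94 and 0.44. The means of STIM2, ORAI3, STIMATE, CRACR2B and SARAF, which slows STIM1, lay between -0.40 and -0.01. The 6 means over Mock lay between -0.51 for CRACR2B (adjusted p = 0.0611) and 0.30 for ORAI3 (0.0951).

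Calmodulin, the calcium sensor protein that activates PMCA pumps, is counted with the pump regulators, of which 3 of 5 tested genes passed in the RNA labelled MUC4-KD, all higher. Beside this and the list counts below, 23.1% of all tested genes passed in that RNA, 12.2% as higher and 10.9% as lower. CALM3 had ratios of 1.68, 0.53, 1.39 and 1.12 and a mean of 1.18 ± 0.49 (limma adjusted p = 0.0174). The calmodulin-like genes CALML3, at 0.82 ± 0.51 (0.0425), and CALML4, at 0.44 ± 0.15 (0.0437), also passed. In ErbB2-KD CALM3 had a mean of 0.81 ± 0.46, above 0 on 4 of 4 arrays, and did not pass (0.114). The median log2 ratio of the 5 pump regulators tested was 0.57 in ErbB2-KD and 0.55 in the RNA labelled MUC4-KD.

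Of 9 tested genes of mitochondrial calcium uptake, 3 passed in the RNA labelled MUC4-KD, all higher, where 12.2% of all tested genes did. MCUB, a subunit that lowers the activity of the uniporter, had a mean of 0.86 ± 0.39 (limma adjusted p = 0.0246). The outer membrane channels VDAC1 and VDAC3 had means of 0.68 ± 0.31 (0.0313) and 0.57 ± 0.17 (0.0263). All 3 genes were above 0 on 4 of 4 arrays.

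Of 13 tested calcium binders of the endoplasmic reticulum and Golgi, 2 passed as higher and 1 as lower in the RNA labelled MUC4-KD. Of all tested genes 12.2% and 10.9% did. NUCB2, a calcium-binding protein of the Golgi and the precursor of nesfatin, had ratios of 0.64, 0.76, 0.83 and 0.91 and a mean of 0.78 ± 0.11 (limma adjusted p = 0.0107). The chaperone calnexin, CANX, was higher at 0.64 ± 0.32 (0.0364), and reticulocalbin RCN1 was lower at -0.43 ± 0.10 (0.0404). No gene of this list passed in ErbB2-KD, where NUCB2 had a mean of -0.04 ± 0.68.

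Of 9 tested TRP channels, a family of cation channels, 2 passed as lower in the RNA labelled MUC4-KD, where 10.9% of all tested genes did. The epithelial calcium channel TRPV6 had a mean of -0.95 ± 0.49 (limma adjusted p = 0.0284; above background there on 3 of 4 arrays) and TRPM7, a channel for magnesium and calcium fused to a kinase, -0.74 ± 0.46 (0.0432). TRPV6 met the filter only through Mock, where it was above background on 4 of 4 arrays, so its call as lower is not independent of the filter. Among 9 tested genes of calcineurin and NFAT, the catalytic subunit PPP3CA was higher at 0.77 ± 0.25 (0.0181), and RCAN2, an inhibitor of calcineurin, was lower at -0.92 ± 0.17 (0.00852). None of the 5 tested store release channels and none of the 4 exchangers passed, with 1 and 0 genes in the same RNA at an unadjusted p under 0.05 by limma. Among all tested genes 42.0% had such a p.

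Of these 13 list genes, 0 remained past the threshold without MUC4-KD array 3 and 0 with median centring. Without array 1 the lists held 1 called gene, without array 2 they held 2, and without array 4 they held 20. The adjusted p-values come from a fit of all tested probes, so these counts are not a result about the lists alone.

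**Figure D4:**
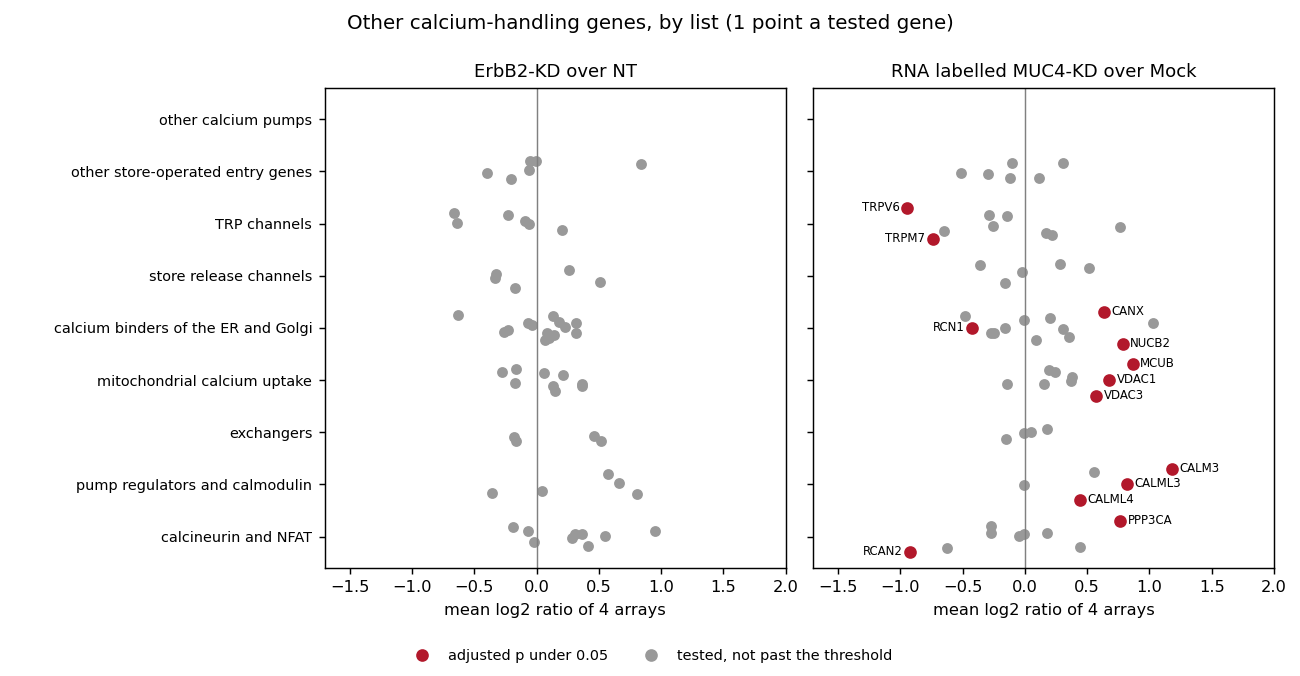
Mean log2 ratio over 4 arrays of each tested calcium-handling gene outside the member set, by list, in ErbB2-KD over NT (58 genes) and in the RNA labelled MUC4-KD over Mock (60 genes). Red points passed an adjusted p of 0.05 in limma and are named: 13 genes in the RNA labelled MUC4-KD, 9 to the right of 0 and 4 to the left, and 0 in ErbB2-KD.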

How the data were processed

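The authors hybridised Cy3- and Cy5-labelled RNA to Agilent pangenomic arrays and deposited the output of Feature Extraction 10.5, which holds the median intensity of each spot and its background. They also deposited log10 ratios with background and dye corrected by that software; the series table equals these ratios turned to knockdown over control within 5e-06, with a median of 0 in every column. Here, in R 4.3.3 with limma 3.58.1, intensities were corrected by normexp (offset 50), normalized by loess within each array without outlier spots, turned to labelled knockdown over control and averaged over the spots of a probe. These log2 ratios were tested against 0 with lmFit and eBayes over all probes well above background on every array in 1 of the 2 RNAs, with Benjamini-Hochberg adjustment. Channel levels were scaled by Aquantile. Levels of different probes were not compared. The fold of the second ATP2B4 probe sets its level in the RNA labelled MUC4-KD against its own dim level in Mock. It is a plain mean ratio near background and not a bound.

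Symbols came from matching accessions to RefSeq (25398 probes named, 15602 not). A gene in a list takes its brightest probe, and genes named are those of the members, of the pump and store-operated entry lists, the called genes of the other lists (up to 4 a list) and the 5 nearest ATP2C2. The members and lists were chosen with earlier results of these data known. The number of arrays limits the precision: 4 ratios cannot reach an exact sign-flip p below 0.125, and the median SD between arrays was 0.30 (ErbB2-KD) and 0.28 (MUC4-KD). The methods name GeneSpring for normalization and tests, whose steps were not repeated. The plain t-test is an alternative on the values made here. Alternatives were another offset (10), median centring, Feature Extraction's ratios, no filter and a stricter filter on dim probes, a dye term, slide and replicate blocks, an intensity trend, that t-test, paired arrays averaged, gene means and leaving out each array.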

Additional observations from a re-analysis of the deposited data

Results flagged for a closer look

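The ATP2B4 probe A_24_P405205 in the RNA labelled MUC4-KD was flagged because 1 array stood apart: array 2, at a log2 ratio of 2.20, lay above the range of 1.22 to 1.24 of the other 3, and its gap made up 0.979 of the whole range. This rule was applied to 24 sets of 4 arrays of the member probes, and chance flags about 1 in 20. The 3 ATP2C1 probes were flagged because the experiments differed in limma's test of the difference, RNA labelled MUC4-KD minus ErbB2-KD: 1.19 for A_23_P143916, 1.77 for A_24_P137372 and 1.67 for A_24_P137376.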

How the results depend on the processing

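In ErbB2-KD 0 member probes and 0 calcium list genes passed under every alternative run, and leaving out each array gave 0 to 0. This says little of stability, since few probes of any gene passed in several of these fits: 0 by a plain t-test, 31 with median centring, 0 without array 1, 4 without array 3 and 33 without array 4. Other fits called more probes than the 342 of the main fit: 486 with Feature Extraction's ratios, 515 with an intensity trend and 487 without array 2. In the RNA labelled MUC4-KD the 4 member probes became 0 with median centring, 0 by a plain t-test and 2 as gene means (ATP2C1 and ATP2B4), and 0 to 5 when each array was left out: 0 without array 3, 2 without array 1, 3 without array 2 and 5 without array 4, which added STIM1 as lower. The 13 list genes became 0 with median centring, 0 by that t-test, 8 with no filter on dim probes, 7 with arrays 1 and 3 and arrays 2 and 4 averaged, and 0 to 20 when each array was left out. Each fit adjusts over all tested probes, so these changes in count are not particular to the members or lists. The 3 probes called for the difference became 0 with median centring, 1 as gene means (ATP2C1), and 2 to 3 when each array was left out. The labels give both experiments the numbers 1 to 4 without pairing them: deviations of same-numbered arrays correlated between -0.24 and -0.0485, and no array was most like its own number. Each ErbB2-KD array was most like a MUC4-KD array with the knockdown in the same dye, and the main fits hold no dye term. With the replicate number as a block 2 probes passed for the difference. Turning the MUC4-KD ratios, an alternative chosen after seeing the data, reversed the difference: 3 probes were called, all lower, namely 2 of ATP2C1 (-0.90 and -0.83) and ATP2B4 (-2.06), and the brightest ATP2C1 probe, at -0.30, did not pass. Median centring left 1 call among all probes in the RNA labelled MUC4-KD and the t-test 106. For ATP2C2 the log ratios of Feature Extraction moved the mean beyond the SD between arrays, to -2.39 and -3.78. Under the other alternatives no called member changed sign. The cause of these changes was not tested. Signal over background limits ATP2A3, given no fold, and the second ATP2B4 probe, given only an untested ratio near background.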
